A study of Mus musculus with 5 samples.

Results

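Activated CD8 T cells carrying hashtag 1, 4 or 7 were cells with CD3 and CD8 transcripts and at least 2 counts of exhaustion-type receptors, with no count of the stem-like marker Tcf7 and at most 1 of the proliferation genes Mki67 and Top2a. They numbered 944 of 21531 cells that passed the cell filters. A cell was a member when Cd3e, Cd3d and Cd3g summed to at least 3 UMIs (unique molecular identifiers, each 1 counted transcript), Cd8a and Cd8b1 to at least 2, and Pdcd1, Lag3 and Havcr2 to at least 2. It also had to have 0 UMIs of Tcf7, at most 1 of Mki67 and Top2a and at most 5 of C1qa, C1qb and C1qc, with its leading hashtag at least 3 times the next. The rule gave 533 members in population 1, 294 in population 4 and 117 in population 7, where a population is all cells with that hashtag. Members were thus chosen by their measured UMIs of these genes, so those levels are given as a description only.

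The study sorted live CD45+ immune cells from 3 mice and 3 sites of each mouse, named tumour, dLN and non-dLN, and read them as 1 pool of droplet-based 5′ libraries with 9 hashtags. A hashtag is an antibody with a barcode that marks the sample a cell came from. Mouse 1 had received nivolumab_mIgG1_D265A, mouse 2 nivolumab_mIgG1 and mouse 3 the isotype control MOPC21. Nivolumab is an antibody to human PD-1, and D265A is an exchange in the antibody's constant region that is known to weaken binding to Fc receptors. Host strain, any human PD-1 allele, age, tumour line, dose and time are not given in the sources used here. No source used here ties a hashtag to a mouse or a site, and the numbers of hashtags and of the study's samples were not taken to match. Every population therefore stood as 1 sample of unstated origin: the values of populations 1, 4 and 7 are set side by side without a test, and no treatment or site is compared.

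CD8 T cells recognise peptide on MHC class I and kill by releasing perforin, which opens membranes, and granzymes, proteases that enter through them. Under lasting antigen they acquire inhibitory receptors such as PD-1 (Pdcd1), LAG-3 (Lag3) and TIM-3 (Havcr2). A Tcf7-positive pool is known to renew such cells, and Tcf7-negative cells of this kind are regarded as more differentiated. In tumours they are known to differ widely in granzymes, cytokines and chemokine receptors.

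Members made up 25.9% of the 2056 cells of population 1 (95% exact interval 24.0 to 27.9%), 12.8% of the 2304 cells of population 4 (11.4 to 14.2%) and 4.74% of the 2467 cells of population 7 (3.94 to 5.66%). Among CD8 T cells that met the C1q limit they were 77.2% of 690, 73.5% of 400 and 64.3% of 182. Members' summed depth was 3594887, 2047149 and 951231 UMIs in populations 1, 4 and 7, with medians of 6446, 6645 and 7444 UMIs and 2339, 2328 and 2509 genes a cell. Levels below are the members' summed UMIs of a gene per 1000000 of their UMIs (CPM), in the order of populations 1, 4 and 7. All intervals are at 95% and cover counting error only, since cells of 1 sample are not replicates. Levels are compared between cells, never between genes.

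The label was checked on genes that the rule did not use. Naive-like CD8 T cells were CD8 T cells of the other hashtags with no checkpoint UMI and a UMI each of Tcf7 and 1 further marker, B cells had at least 5 UMIs of Cd79a, Cd79b and Ms4a1, and C1q-high cells at least 20 of the C1q genes, both with 0 of Cd3. With each cell thinned to 2000 UMIs, Gzmb was seen in 74.9% (71.9 to 77.6%) of members, against 3.12% (2.29 to 4.14%) of naive-like CD8 T cells and 4.59% (4.03 to 5.22%) of B cells, whose share is a measure of free RNA. Unthinned, the 3 shares were 83.5%, 5.86% and 6.51%. Cxcr6, a chemokine receptor of tissue T cells, was seen in 75.3% (72.4 to 78.1%) of members and 4.74% (3.72 to 5.95%) of naive-like CD8 T cells, beside 0.817% (0.584 to 1.11%) of B cells. Median depths were 6644.5 UMIs in members, 5240 in naive-like CD8 T cells and 3069 in B cells. For both genes members were far above naive-like CD8 T cells and B cells.

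Markers of other cells were low but not absent. Cd4 stood at 3.62, 5.86 and 1.05 CPM in members, against 78.4, 62.7 and 73.7 CPM in other T cells of the same populations. Foxp3, which defines regulatory T cells, had 2.23, 11.7 and 0 CPM in members and 56.5, 46.7 and 39.8 CPM in other T cells. The NK receptor Ncr1 had 0, 0.977 and 1.05 CPM in members and 23.4, 18.0 and 34.7 CPM in other T cells. All 10 macrophage and monocyte markers were detected in members, at a summed 1025, 1077 and 1390 CPM, against 1331, 1649 and 2068 CPM in other T cells and 63278, 60275 and 48091 CPM in C1q-high cells. Lyz2 had a UMI in 10.2% of thinned members, 10.2% of naive-like CD8 T cells and 15.6% of B cells, so its share in members did not exceed that of lymphocytes that do not make it. B cell markers summed to 29.8, 29.3 and 16.8 CPM in members, against 47.9, 44.0 and 31.3 CPM in other T cells, with 3 to 4 of 4 detected in each population of members. Of 4 neutrophil markers, S100a9 and Cxcr2 were at 0 in members of every population. The part of these markers in the results below was not tested, and genes over 10 times higher in C1q-high or B cells than in members are marked as such.

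Cells at the edge of the rule were few. Exactly 2 checkpoint UMIs were held by 37 members, and 27 cells were kept out with 1. Gzmb stood at 848, 1936 and 404 CPM in the members just inside in populations 1, 4 and 7, against 1162, 982 and 155 CPM in the cells just outside, so the order turned round in population 1. Ccl5 stood at 6579.6, 5842 and 6727 CPM inside and 6302, 6086 and 2227 CPM outside. Cxcr6 stood at 484, 484 and 202 CPM inside and 669, 813 and 619 CPM outside, lower inside in each population. The median member held 10, 14 and 10 checkpoint UMIs in populations 1, 4 and 7, and 62.7, 68.0 and 56.4% of members held all 3 of Pdcd1, Lag3 and Havcr2.

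The gene part of the rule was met by 26 of 14446 cells with another hashtag, or 0.180% (0.118 to 0.264%), in numbers of 3 to 6 a population. Gzmb had 3435 CPM in members and 2006 CPM (1744 to 2296) in these 26 cells, and Cxcr6 had 905 CPM in members and 344 CPM (241 to 476) in the 26 cells. S1pr1, the receptor for exit from lymphoid tissue, had 2.88 CPM in members and 66.9 CPM (26.9 to 138) in the 26 cells. Klf2, a factor that maintains S1pr1, had 62.5 CPM in members and 468 CPM (346 to 619) in the 26 cells. Members were thus higher in Gzmb and Cxcr6 and lower in S1pr1 and Klf2, genes of recirculating T cells, than the 26 cells.

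Members were first set against all other T cells of the same population, 342, 270 and 142 cells with the same Cd3 and C1q limits. Of 5559 genes with at least 50 UMIs in each population, 6 were at least 2-fold higher in members of all 3 populations with each interval above 1 (0.108%), and 129 were lower (2.32%). In single populations 0.645% of genes passed as higher in population 1, 1.36% in population 4 and 0.785% in population 7, and 5.32, 5.5 and 4.69% as lower. The 6 higher genes were Adgrg1, Prf1, Wdr95, Styk1, Slc17a6 and Smyd1. Prf1, which encodes perforin (chromosome 10, 61297833 to 61304680 in GRCm38), had 807, 1001 and 886 CPM in members and 330.5, 302 and 339 CPM in other T cells, ratios of 2.44 (2.24 to 2.66), 3.31 (2.99 to 3.67) and 2.62 (2.32 to 2.96). Adgrg1, the adhesion receptor GPR56 of cytotoxic lymphocytes, had 41.2, 38.1 and 43.1 CPM in members and 12.7, 10.0 and 9.31 CPM in other T cells. Members of every population were above the other T cells of every population for both genes. With population 1, 4 or 7 left out, 21, 9 and 16 genes were higher and 147, 162 and 218 lower, and with every cell thinned to 2000 UMIs 2 were higher and 10 lower. Styk1, a receptor-like kinase, had 52.9, 67.4 and 65.2 CPM in members and 23.9, 31.4 and 24.6 CPM in other T cells, but its weakest ratio was 0.9485 in thinned cells.

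The lower genes were led by the cell cycle, and the rule had taken cycling cells out of the members. Hist1h1b, Rrm2, Tpx2, Hist1h2ae, Hist1h3b, Cdca8, Hist1h2ab, Cenpf and Kif11, genes of DNA packaging, nucleotide supply and mitosis, were 9 of the 10 lowest. Of the 129 genes, 17 were histone genes and 25 were over 10 times higher in C1q-high or B cells than in members. Klra7, an NK receptor of the Ly49 family, was the exception among the 10 lowest, with 0.835, 0 and 0 CPM in members and 78.4, 115 and 46.6 CPM in other T cells. A count of 0 allowed up to 0.835, 1.47 and 3.15 CPM in members of the 3 populations.

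Cycling cells among the other T cells also held effector transcripts, so the comparison was repeated against the 558 other T cells with at most 1 UMI of Mki67 and Top2a (247, 216 and 95 cells), called non-cycling below, a choice made after seeing the data. There 40 of 4259 genes were higher in members of all 3 populations (0.939%) and 84 were lower (1.97%), of which 21 were over 10 times higher in C1q-high or B cells. Of the 40, 4 were among the 6 genes above (Prf1, Wdr95, Styk1 and Slc17a6), and 30 of the 84 were among the 129. Of the 558 cells, 44 met the rule except that they held Tcf7 (Tcf7-positive), and 116 were CD8 T cells with at most 1 checkpoint UMI (checkpoint-low). The rest, and so most, had under 2 UMIs of Cd8a and Cd8b1. Against other CD8 T cells alone, cycling ones included, 1 of 4750 genes was higher and 119 were lower. The values against non-cycling T cells below come from the 558 cells, and the part of CD8 identity in them was not tested. Other T cells were chosen by Cd3 and C1q alone, so NK-like and gamma-delta cells were not kept out. Of all 754, cycling ones included, 328 were CD8 T cells and 122 held Cd4 without Cd8a or Cd8b1. They held more Ncr1 and Klra7 than members, and the part of NK-like cells in the genes lower in members, such as Xcl1, Klrg1 and Cd7, was not tested.

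**Figure D1:**
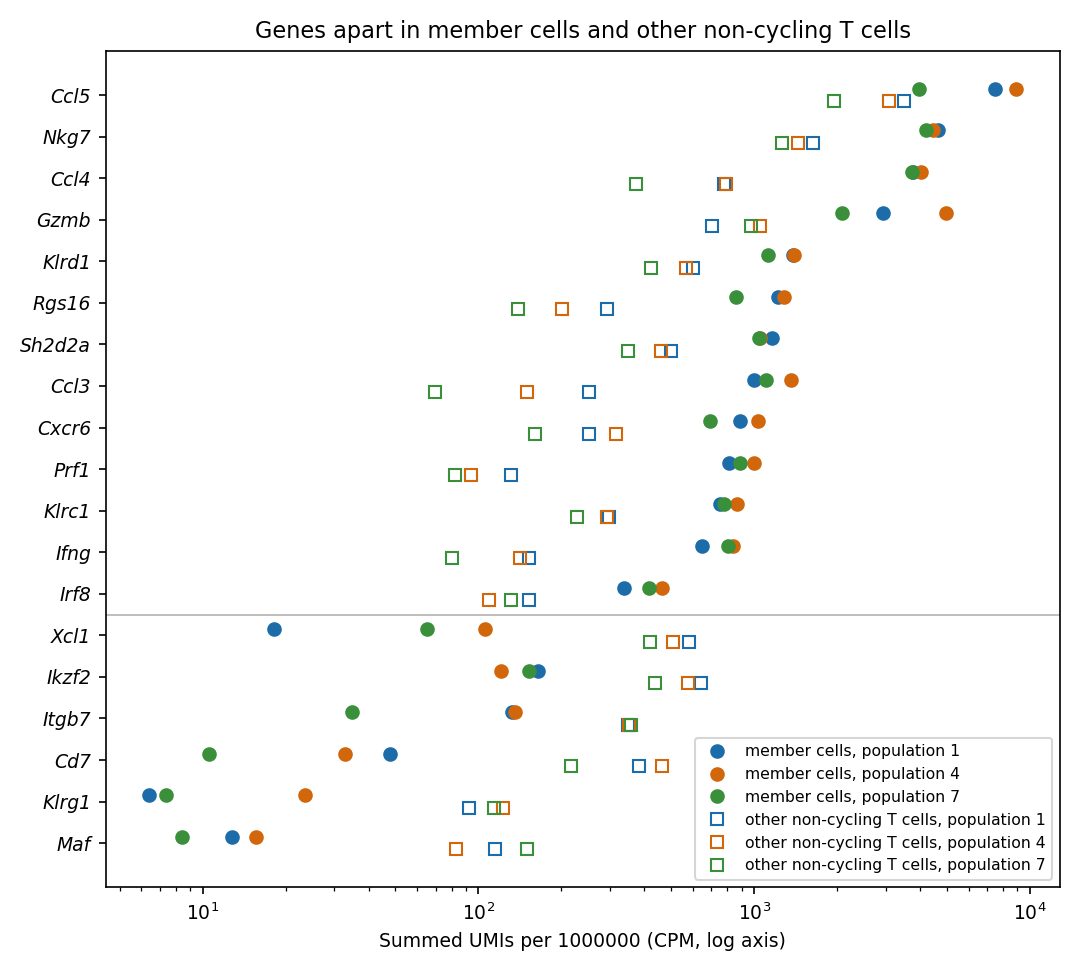
Level of 19 genes in members (filled circles) and in other T cells without a cycling profile (open squares), 1 point for each of populations 1, 4 and 7, in CPM on a log axis. The 13 genes above the line were at least 2-fold higher in members of all 3 populations and the 6 below it at least 2-fold lower, with Xcl1 at 18.1, 106 and 65.2 CPM in members and 581, 506 and 420.0 CPM in the other cells.

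Cytotoxic genes stood higher in members than in non-cycling T cells. Of 13 measured, 5 were at least 2-fold higher in all 3 populations and none was lower, with median log2 ratios of 1.51, 2.24 and 0.50, beside -0.08, -0.06 and -0.02 over all genes. Against all other T cells only Prf1 of 13 passed, with medians of 0.87, 0.80 and 0.16 beside -0.09, -0.10 and -0.05. Gzmb, which cleaves caspases in target cells, had 2926, 4956 and 2089 CPM in members and 701, 1047 and 973 CPM in non-cycling T cells, ratios of 4.17-fold (3.87 to 4.51), 4.73-fold (4.43 to 5.06) and 2.15-fold (1.94 to 2.38). Prf1 was 6.14-fold (5.16 to 7.37), 10.6-fold (8.56 to 13.3) and 10.8-fold (7.81 to 15.2) higher in members. Nkg7, a granule protein needed for granule release, had 4624, 4440.3 and 4179.9 CPM in members, against 1628, 1438 and 1262 CPM in non-cycling T cells. Gzmb levels did not overlap between members and non-cycling T cells, whereas against all other T cells they did, at 1604, 2149 and 2277 CPM.

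Not every killing gene followed. Fasl, the ligand of the death receptor Fas, had 161, 132 and 158 CPM in members and 72.1, 99.7 and 112 CPM in non-cycling T cells. Ctsw, a cathepsin of cytotoxic lymphocytes, had 864, 767 and 645 CPM in members and 725, 877 and 569.9 CPM in non-cycling T cells. Neither gene reached 2-fold in any population except Fasl in population 1, at 2.24-fold (1.75 to 2.90). Gzmm was close to absent, with 2.50, 0.977 and 2.10 CPM in members.

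Cytokine and chemokine genes stood on both sides. Of 9 measured, 4 were higher in members than in non-cycling T cells and 1 was lower, with median log2 ratios of 0.92, 1.53 and 1.02. Ifng, the interferon that activates macrophages and raises MHC, had 647, 834 and 801 CPM in members and 152, 141 and 80.2 CPM in non-cycling T cells. The chemokines Ccl3, Ccl4 and Ccl5, which draw T cells and myeloid cells, followed. Ccl3 had 995, 1360.4 and 1102 CPM in members and 251, 150.1 and 69.7 CPM in non-cycling T cells. Ccl4 had 3751, 4034 and 3728 CPM in members and 775, 788 and 371 CPM in non-cycling T cells, and Ccl5 had 7485, 8924 and 3965 CPM in members and 3506, 3083 and 1954 CPM in non-cycling T cells. Xcl1, the chemokine that attracts cross-presenting dendritic cells, was the lower one, at 18.1, 106 and 65.2 CPM in members and 581, 506 and 420.0 CPM in non-cycling T cells. Xcl1 was also lower than in all other T cells, whose level was 309, 689 and 417 CPM.

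Il2, the T cell growth factor, had no UMI in any member. Il10 had 5.01, 8.30 and 6.31 CPM in members and 35.1, 32.0 and 33.9 CPM in other T cells, with fewer than the 50 UMIs needed for the count in population 7. Ltb, a lymphotoxin chain, had ranges that overlapped, with 823, 715 and 804 CPM in members and 915, 733 and 713 CPM in non-cycling T cells.

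Among inhibitory receptors outside the rule, 1 of 9 measured was higher in members than in non-cycling T cells and 1 lower. Klrc1, which encodes the inhibitory NKG2A, had 750.0, 868 and 778 CPM in members and 296, 293 and 228 CPM in non-cycling T cells. Its partner Klrd1 (CD94) had 1381, 1389.7 and 1119 CPM in members and 599, 564 and 424 CPM in non-cycling T cells. At 2000 UMIs a cell Klrd1 was seen in 82.0% of members, 79.1% of Tcf7-positive and 67.7% of checkpoint-low CD8 T cells. Klrg1, a receptor of short-lived effector cells, was the lower one, with 6.40, 23.4 and 7.36 CPM in members and 92.8, 123 and 114 CPM in non-cycling T cells. Ctla4, which competes with CD28 for its ligands, had 751, 751 and 729 CPM in members and 708, 574 and 669 CPM in non-cycling T cells. Tigit, which competes with CD226 for its ligands, had 488, 601 and 509 CPM in members and 553, 432 and 230.1 CPM in non-cycling T cells. Both stayed under 2-fold in populations 1 and 4, and Tigit reached 2.21-fold (1.79 to 2.75) in population 7. Entpd1, the ectonucleotidase CD39 often used to mark exhausted cells, had 166, 146 and 151 CPM in members and 111, 91.0 and 80.2 CPM in non-cycling T cells, ratios of 1.5, 1.61 and 1.89.

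NK receptors split by type. Of 6 measured, Klrd1 and Klrc1 were higher in members than in non-cycling T cells. Fcer1g and Tyrobp, adaptors shared with NK and myeloid cells and over 10 times higher in C1q-high cells, were the 2 lower ones. Klrk1, the activating NKG2D, had 429, 466 and 343 CPM in members and 316, 359 and 182 CPM in non-cycling T cells. Klra1, Klra9 and Klrb1c, which mark NK and NKT cells, had at most 3.15 CPM in members of any population.

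Costimulatory receptors gave 0 higher and 1 lower of 9. Cd7, the lower one, had 47.8, 32.7 and 10.5 CPM in members and 381, 464 and 217 CPM in non-cycling T cells. Tnfrsf4 (OX40) had 140.2, 146 and 326 CPM in members and 551, 532 and 637 CPM in non-cycling T cells. Tnfrsf9 (4-1BB), a receptor raised by antigen contact, had 648, 1299 and 1452 CPM in members and 741, 709 and 781 CPM in non-cycling T cells. Cd40lg, a helper cell ligand, had 0.835, 0.977 and 0 CPM in members and 27.7, 19.7 and 31.7 CPM in non-cycling T cells.

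Of 19 transcription factors of effector and exhausted cells, 1 was higher in members than in non-cycling T cells and 2 were lower. Irf8 had 337, 464 and 414 CPM in members and 152, 109.6 and 131 CPM in non-cycling T cells, ratios of 2.21-fold (1.87 to 2.63), 4.23-fold (3.44 to 5.26) and 3.17-fold (2.42 to 4.21). Ikzf2 (Helios) had 164, 121 and 152 CPM in members and 643, 574 and 437 CPM in non-cycling T cells, and Maf had 12.8, 15.6 and 8.41 CPM in members and 115, 83.3 and 149.9 CPM in non-cycling T cells. Id2, which holds effector fate against stem-like fate, had 1060.1, 1118 and 697 CPM in members and 459, 362 and 350.4 CPM in non-cycling T cells and narrowly missed the limit in population 7, at 1.99-fold (1.68 to 2.37). Bhlhe40 had 877, 946 and 817 CPM in members and 435, 476 and 386 CPM in non-cycling T cells, ratios of 2.02, 1.99 and 2.11.

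Tox, the factor most tied to exhaustion, and the T-box factors did not separate members from all other T cells, cycling cells included. Tox had 235, 74.2 and 249 CPM in members and 210.3, 91.4 and 174 CPM in other T cells. Tbx21 (T-bet) had 223, 225 and 204 CPM in members and 157, 157 and 192 CPM in other T cells. Eomes had 13.9, 14.7 and 12.6 CPM in members and 23.9, 16.0 and 13.5 CPM in other T cells. The result depends on the cells compared. At 2000 UMIs a cell Tbx21 was seen in 32.6% of members, 30.4% of cycling and 15.6% of checkpoint-low CD8 T cells. Tox was seen in 26.6% of members, 28.5% of cycling and 16.7% of checkpoint-low cells, and Eomes in 2.19, 3.16 and 7.29%. Nr4a2, a receptor signal target, had 557, 441 and 674 CPM in members and 305, 316 and 328 CPM in other T cells, ratios of 1.83, 1.40 and 2.06.

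Quiescence and stem-like genes lay on the low side. Of 10 measured, 2 were lower in members than in non-cycling T cells and none higher, with median log2 ratios of -1.17, -0.73 and -0.90. Klf2 had 62.3, 63.0 and 62.0 CPM in members and 433, 283 and 409 CPM in non-cycling T cells. Klf3 had 5.29, 4.40 and 3.15 CPM in members and 75.1, 70.1 and 109.8 CPM in non-cycling T cells. Both were over 10 times higher in B cells than in members. Lef1, a partner of Tcf7 in stem-like cells, had 32.3, 48.4 and 11.6 CPM in members, 126, 133 and 73.9 CPM in non-cycling T cells and 544 CPM in naive-like CD8 T cells. Because the rule set Tcf7 to 0, this direction is close to what the rule used.

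Several homing receptors were low in members and Cxcr6 was high. Of 16 measured, 2 were higher than in non-cycling T cells and 5 were lower. Cxcr6 had 891, 1029.7 and 689.6 CPM in members and 251, 315 and 160.4 CPM in non-cycling T cells. Rgs16, a brake on chemokine receptor signalling, had 1223, 1277 and 861 CPM in members and 292, 202 and 139 CPM in non-cycling T cells. Ccr7 had 36.4, 72.8 and 76.7 CPM in members and 232, 175 and 184 CPM in non-cycling T cells, and Cxcr4 had 7.51, 5.86 and 3.15 CPM in members and 86.9, 84.4 and 106 CPM in non-cycling T cells. Ccr7, a receptor for entry into lymph nodes, and Cxcr4 were over 10 times higher in B cells than in members. Ccr2 had 39.8, 53.7 and 21.0 CPM in members and 160.0, 133 and 201 CPM in non-cycling T cells. Itgb7, the partner of the gut and epithelial integrins, had 133, 136 and 34.7 CPM in members and 349.6, 353 and 357 CPM in non-cycling T cells. S1pr1 had 4.17, 1.47 and 1.05 CPM in members and 68.1, 77.8 and 65.4 CPM in non-cycling T cells, with too few UMIs for the count.

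Few genes of the T cell receptor path and of surface contact passed the limit. Of 25 signalling genes and brakes, 1 was higher in members than in non-cycling T cells. That gene was Sh2d2a, the adaptor TSAd that binds Lck, with 1164, 1050.2 and 1038 CPM in members and 501, 459 and 348 CPM in non-cycling T cells. Zap70, the kinase that PD-1 signalling restrains through SHP phosphatases, had 310.4, 333 and 368 CPM in members and 223, 188 and 272 CPM in non-cycling T cells. Ptpn11 (SHP-2) had 38.9, 39.6 and 36.8 CPM in members and 65.2, 41.6 and 50.7 CPM in non-cycling T cells. None of 25 microvillus and contact proteins passed the limit against either set of T cells, with median log2 ratios of 0.27, 0.30 and -0.02 against non-cycling T cells. The microvillus linker Ezr had 269.8, 304 and 301 CPM in members and 319, 279 and 289 CPM in non-cycling T cells. Msn, of the same family, had 575, 650.2 and 569 CPM in members and 599.5, 627 and 701 CPM in non-cycling T cells.

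Few metabolic, stress and antigen presentation genes passed it either. Slc2a3, a glucose transporter, was the 1 glycolysis gene of 17 that was higher, at 108, 162 and 88.3 CPM in members and 43.5, 39.5 and 31.7 CPM in non-cycling T cells. The list's median log2 ratios were 0.42, 0.86 and 0.54. No gene of the respiratory chain (15), of the heat shock list (9), of the death and survival list (10) or of MHC class I (12) passed in either direction. Of 13 immediate early genes, Fos, over 10 times higher in C1q-high or B cells, and Zfp36 were lower in members. Zfp36, which destabilises cytokine transcripts, had 310.2, 340.5 and 216 CPM in members and 703, 732 and 663 CPM in non-cycling T cells.

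In Gzmb and Prf1, members were closest to cycling CD8 T cells that otherwise met the rule, whatever their Tcf7. Shares were taken at 2000 UMIs a cell over 915 members, 158 cycling, 43 Tcf7-positive and 96 checkpoint-low CD8 T cells of the same populations, after 29 members, 0 cycling, 1 Tcf7-positive and 20 checkpoint-low cells were left out as too shallow. Gzmb was seen in 74.9% (71.9 to 77.6%) of members, 81.0% (74.0 to 86.8%) of cycling cells, 44.2% (29.1 to 60.1%) of Tcf7-positive cells and 34.4% (25 to 44.8%) of checkpoint-low cells. Prf1 was seen in 57.2% (53.9 to 60.4%) of members, 51.3% (43.2 to 59.3%) of cycling cells, 32.6% (19.1 to 48.5%) of Tcf7-positive cells and 11.5% (5.86 to 19.6%) of checkpoint-low cells. Ifng, in contrast, was close between members and Tcf7-positive cells, with 44.0% (40.8 to 47.3%) of members and 46.5% (31.2 to 62.3%) of Tcf7-positive cells, within their intervals. Ccl5 was seen in 83.5% (80.9 to 85.8%) of members and 82.3% (73.2 to 89.3%) of checkpoint-low cells. Cxcr6 was seen in 75.3% (72.4 to 78.1%) of members, 58.9% (50.8 to 66.6%) of cycling, 48.8% (33.3 to 64.5%) of Tcf7-positive and 36.5% (26.9 to 46.9%) of checkpoint-low cells. At this depth members were above the 3 other classes in Cxcr6 beyond the counting intervals. Unthinned, Gzmb was seen in 83.5% of members, 91.8% of cycling, 50% of Tcf7-positive and 43.1% of checkpoint-low cells. Prf1 was seen in 79.9% of members, 82.3% of cycling, 47.7% of Tcf7-positive and 14.7% of checkpoint-low cells, and Cxcr6 in 92.3% of members, 95.6% of cycling, 68.2% of Tcf7-positive and 51.7% of checkpoint-low cells. The unthinned order of members and cycling cells in Cxcr6 was thus the opposite, at median depths of 6644.5 UMIs in members, 10143 in cycling, 5903.5 in Tcf7-positive and 3632.5 in checkpoint-low cells. The level of Cxcr6, which does not rest on a share, was 905 CPM in members and 601 CPM in cycling cells.

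Some of the 40 higher genes lie outside every list and were picked here after their values were seen. Cd38, an ectoenzyme of chronically stimulated T cells, had 54.0, 46.4 and 51.5 CPM in members and 25.7, 20.8 and 12.7 CPM in non-cycling T cells. Zbtb32, a repressor that limits virus-specific T cell responses, had 128, 155 and 171 CPM in members and 51.4, 12.1 and 29.6 CPM in non-cycling T cells. Spp1, which encodes the secreted protein osteopontin, had 155, 148 and 204 CPM in members and 38.5, 64.7 and 90.8 CPM in non-cycling T cells, and the survival gene Bcl2a1d had 431, 575 and 447 CPM in members and 159, 171 and 198 CPM in non-cycling T cells.

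Members were then compared with each other across the populations. A gene was set apart in a population when it differed at least 2-fold the same way from each of the other 2 with both intervals leaving out 1, among 8154 genes with at least 50 UMIs over the 3 populations. Population 1 had 31 such genes higher (0.38%) and 22 lower (0.27%), population 4 had 40 higher (0.491%) and 32 lower (0.392%), and population 7 had 80 higher (0.981%) and 124 lower (1.52%). In other T cells of the same population, 3 of the 31, 6 of the 40 and 10 of the 80 higher genes were at least 2-fold higher too, of 23, 30 and 75 with enough UMIs there. Of the 22, 32 and 124 lower genes, 18, 26 and 114 had enough UMIs there, and 1, 4 and 19 of these were also lower. These counts in other T cells asked for the fold alone, without an interval. The share of all genes past that fold there was not taken, so the counts do not show which genes are particular to members. Without a map of hashtags these are differences between 3 samples, with no replicate of any of them.

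**Figure D2:**
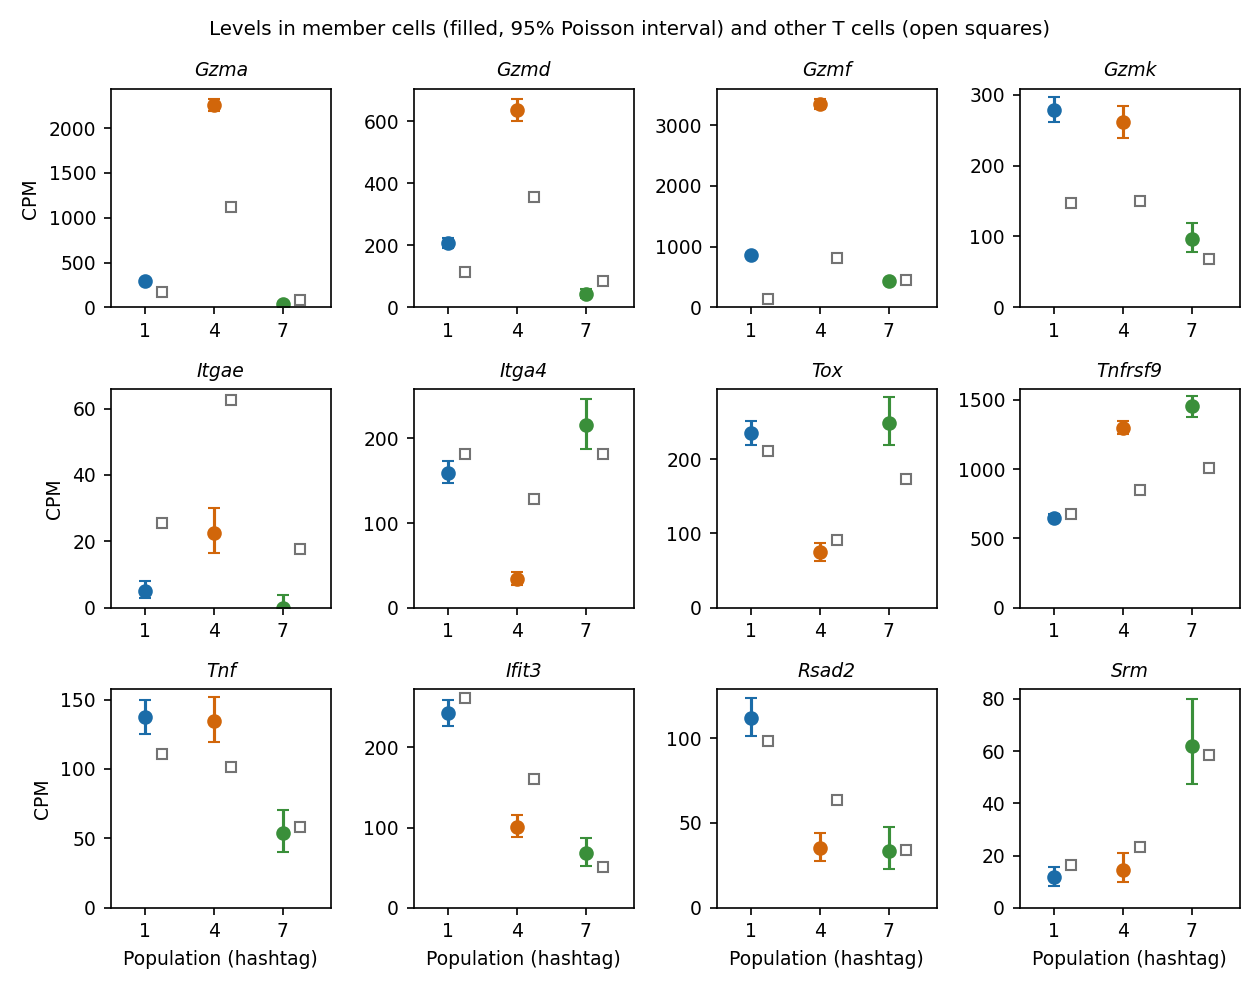
Level of 12 genes in members (filled circles, with 95% Poisson intervals) and in other T cells (open squares) of populations 1, 4 and 7, in CPM on a linear axis that starts at 0 for each gene. Gzma and Gzmf stood highest in population 4, Tox and Itga4 lowest in population 4, and Ifit3 and Rsad2 highest in population 1.

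The type I interferon response was graded across the populations. These genes are switched on when interferon leads a complex that holds STAT2 and IRF9 to bind promoters at a repeated TTTC or GAAA element. The 19 list genes summed to 11111, 8140 and 4565 CPM in members of populations 1, 4 and 7 (intervals 11002 to 11220, 8017 to 8265 and 4430 to 4702). Set against other T cells of the same population, 0 of 17 list genes passed the limit, with median log2 ratios of 0.07, -0.20 and -0.30. Other T cells had a summed 10794, 7758 and 4916 CPM, so the order was the same in both. C1q-high cells had 10429, 11412 and 7606 CPM, with population 4 the highest. In members 5 of the 19 genes were set apart as high in population 1 (Ifit1, Ifit3, Mx1, Usp18 and Rsad2) and 6 as low in population 7 (Oasl1, Irf7, Bst2, Usp18, Ifi27l2a and Rtp4). The list's median log2 ratio was 1.74 between populations 1 and 7, 0.67 between 1 and 4 and 0.66 between 4 and 7, whereas all genes had medians within 0.02 of 0.

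The promoters show the element in 6 of the 13 list genes found in the RefSeq promoter table for GRCm38.p6. They are printed because they hold the element, as 50 bases of each around the match nearest the start site, 5′ to 3′ on the gene's strand, with every match in these bases in capitals and overlapping matches run together. A match is 2 copies of TTTC with any 2 bases between them, or on the other strand 2 copies of GAAA with any 2 bases between them.
Ifit1: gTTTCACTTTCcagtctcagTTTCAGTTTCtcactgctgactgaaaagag
Ifit3: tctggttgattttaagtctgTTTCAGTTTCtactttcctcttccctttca
Isg15: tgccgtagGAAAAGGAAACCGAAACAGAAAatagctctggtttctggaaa
Bst2: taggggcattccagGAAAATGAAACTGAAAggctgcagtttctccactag
Rsad2: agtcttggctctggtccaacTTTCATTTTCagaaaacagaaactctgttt
Stat2: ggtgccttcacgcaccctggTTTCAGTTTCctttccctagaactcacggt
The windows lie at chr19:34640784-34640833 for Ifit1, chr19:34583387-34583436 for Ifit3, chr4:156200855-156200904 on the minus strand for Isg15, chr8:71537567-71537616 on the minus strand for Bst2, chr12:26456543-26456592 on the minus strand for Rsad2 and chr10:128270256-128270305 for Stat2. The first 5 of these genes encode antiviral effectors and Stat2 a part of the activating complex. Over the 250 bases before the start site, both strands searched, 46.2% of the 13 promoters and 2.98% of all 32851 promoters in the table held a match. The 13 are 1 promoter a gene, whereas the 32851 are all entries. The list was chosen as interferon response genes, so these shares are a description only. In this window Isg15 held 3 matches, Ifit1, Ifit3 and Bst2 2 each, and Rsad2 and Stat2 1 each. Ifit2, Isg20, Oasl1, Oasl2, Irf7, Ifi203 and Xaf1 had no match in this window. The window of Ifit3b, at chr19:34607783-34607832, holds the same letters as that of Ifit3, and reads of these near copies may be shared.

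The genes printed above had the following levels. Ifit1 had 163, 71.8 and 46.3 CPM in members of populations 1, 4 and 7, and Ifit3, its neighbour, 243, 101 and 68.3 CPM. Ifit3 was 2.40-fold (2.06 to 2.81) higher in population 1 than in population 4 and 3.55-fold (2.76 to 4.64) higher than in population 7. Rsad2, which encodes viperin, had 112, 35.2 and 33.6 CPM, with population 1 above populations 4 and 7, which were within counting error of each other at 1.05-fold (0.680 to 1.64) for 4 over 7. Isg15, a ubiquitin-like modifier, had 792, 397 and 209 CPM and Bst2, the tether of budding viruses, 811, 509 and 224 CPM, both in the order 1, 4, 7. Stat2 followed at 86.0, 67.4 and 34.7 CPM. Irf7, the factor that amplifies the response and whose window held no match, had 357, 238 and 116 CPM.

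The gradient was also present in the median member cell. At 2000 UMIs a cell, the median member held 18, 13 and 7 UMIs of the 19 genes in populations 1, 4 and 7. The lowest 10% of cells held at most 4, 4 and 2 and the highest 10% at least 47.2, 34 and 17. No UMI of the list was found in 2 of 519, 1 of 284 and 2 of 112 thinned members.

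**Figure D3:**
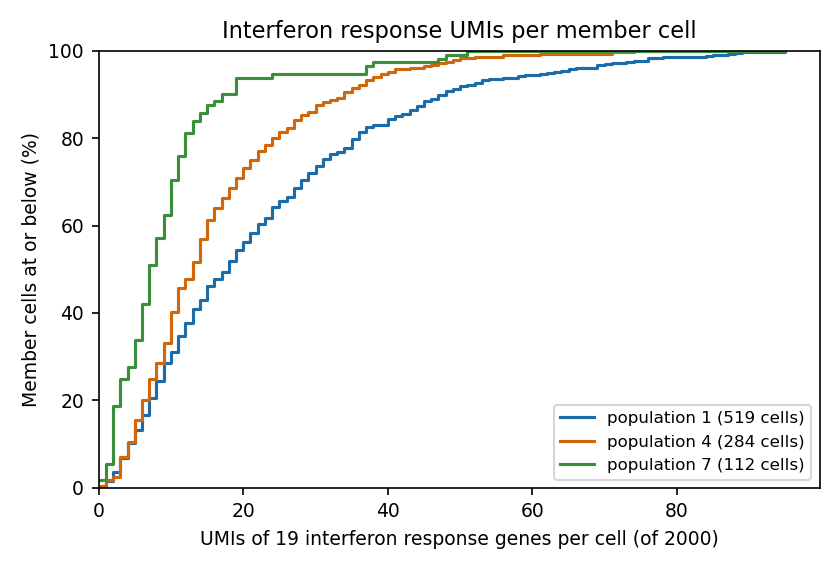
Cumulative share of members (vertical axis, %) against UMIs of the 19 interferon response genes per cell thinned to 2000 UMIs (horizontal axis), 1 line for each of populations 1, 4 and 7. The lines of populations 1 and 4 run together at low counts and part above them, with population 7 to the left, and the medians are 18, 13 and 7 UMIs.

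Granzymes differed between the populations gene by gene. Gzma, a granzyme that acts without caspases, had 2255 CPM in members of population 4, against 297 in population 1 and 43.1 in population 7, ratios of 7.60-fold (7.11 to 8.14) and 52.3-fold (38.5 to 73.0). Gzmf had 3351 CPM in members of population 4, against 869 in population 1 and 427 in population 7. Gzmd had 636 CPM in members of population 4, against 207 in population 1 and 44.2 in population 7, and Gzme had 375 CPM in members of population 4, against 166 in population 1 and 69.4 in population 7. All 4 stood highest in population 4 and lowest in population 7. Gzmb had 4956 CPM in members of population 4, against 2926 in population 1 and 2089 in population 7, and passed the limit against population 7 alone. Gzmk, the granzyme of less differentiated effector cells, had 279, 261 and 96.7 CPM in populations 1, 4 and 7, low in population 7. Population 1 over population 4 gave 1.07-fold (0.961 to 1.19) for Gzmk. Perforin was nearly level, at 807, 1001 and 886 CPM.

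Gzma also differed in how members stood against other T cells. In population 4 it had 2255 CPM in members and 1120.4 CPM in other T cells, a ratio of 2.01 (1.90 to 2.13). In population 1 the ratio was 1.70 (1.51 to 1.93), and in population 7 it was 0.494 (0.335 to 0.716), from 41 UMIs in members. Members were thus above other T cells in populations 1 and 4 and below them in population 7.

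These transcripts sat in a minority of members. Gzma was seen in 16.5, 40.8 and 9.40% of members and the 5% of cells with most of it held 82.0, 49.3 and 85.4% of its UMIs. Gzmf was seen in 18.2, 29.6 and 18.8% of members, with 83.6, 70.5 and 88.2% of its UMIs in the top 5%. Gzmb, in contrast, was seen in 83.3, 88.4 and 71.8% of members. Gzmg, set apart as high in population 1 at 27.8, 4.40 and 0 CPM, rested on 100 UMIs from 6 cells. Counting intervals of such genes understate the error, because the transcripts come from few cells.

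Granzymes of the chromosome 14 cluster appeared together. Gzmb, Gzmc, Gzmd, Gzme, Gzmf and Gzmg lie side by side on the minus strand of chromosome 14, between 56117626 and 56262260 in GRCm38, while Gzma and Gzmk lie on chromosome 13. With members split after seeing the data, Gzmc was seen in 26.4% (19.7 to 34.0%) of the 159 thinned members with a Gzmf UMI and in 5.42% (3.92 to 7.29%) of the 756 without. Gzmd was seen in 27.7% (20.9 to 35.3%) of members with Gzmf and 3.84% (2.58 to 5.46%) of those without, and Gzme in 25.8% (19.2 to 33.3%) of members with Gzmf and 3.31% (2.15 to 4.84%) of those without. The intervals of these 3 genes did not overlap within population 1 or within population 4, while population 7 had only 15 members with Gzmf. Gzmb was seen in 79.2, 95.5 and 73.3% of members with Gzmf in populations 1, 4 and 7 and 74.2, 75.6 and 53.6% of those without, with intervals apart only in population 4. Gzmk was seen in 19.5, 23.9 and 13.3% of members with Gzmf and 37.1, 33.2 and 22.7% of those without, with intervals apart only in population 1. Tox was seen in 27.3, 5.97 and 13.3% of members with Gzmf and 35.5, 14.7 and 39.2% of those without, and its intervals overlapped in each population. The Gzmc to Gzmg genes are close paralogs whose reads may be shared, which was not tested.

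Receptors and factors also differed in population 4. Tox had 74.2 CPM in population 4, against 235 in population 1 and 249 in population 7, and was seen in 22.4% of its members, against 60.6% in population 1 and 65.8% in population 7. Itga4, the alpha chain of the integrin that binds VCAM-1, had 33.7 CPM in members of population 4, against 159.7 in population 1 and 216 in population 7, with 10.5% of members positive, against 51.2% in population 1 and 64.1% in population 7. Itgae, the alpha chain of CD103, which binds E-cadherin on epithelium, was higher instead, with 22.5 CPM in members of population 4, against 5.01 in population 1 and 0 in population 7. Few members held it, 6.12% in population 4, 2.63% in population 1 and 0% in population 7, against 30.1% of naive-like CD8 T cells. At 2000 UMIs a cell the Itgae shares of populations 4 and 1 overlapped, at 3.87% (1.95 to 6.82%) and 1.73% (0.796 to 3.27%). The 0 UMIs of Itgae in population 7 made the ratio at least 7.12-fold when set against 3 counts. A further 3 genes of secreted or structural proteins were high in population 4. Csf1, the macrophage growth factor, had 273 CPM in members of population 4, against 107 in population 1 and 117 in population 7. Ccl1, the ligand of CCR8, had 148 CPM in members of population 4, against 43.7 in population 1 and 16.8 in population 7. At 2000 UMIs a cell Ccl1 was seen in 7 of 67 population 4 members with Gzmf and 14 of 217 without. Lmna, which encodes nuclear lamin, had 66.4 CPM in members of population 4, against 16.1 in population 1 and 17.9 in population 7.

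The other genes named for population 4 by rank were Gstm5, Cass4 and Anxa1 on the high side and Mtus2, Fry and Gldc on the low side. Gstm5 had a weakest ratio of 0.9438 in thinned cells and was no longer higher there. Anxa1, an inhibitor of inflammation, had 121 CPM in members of population 4, against 35.6 in population 1 and 23.1 in population 7. Gldc, an enzyme that breaks down glycine, had 8.79 CPM in members of population 4, against 28.4 in population 1 and 61.0 in population 7. Other T cells had Tox at 210.3, 91.4 and 174 CPM and Itga4 at 182, 128 and 182 CPM, so Tox was lower in population 4 there too, and the gap in Itga4 was smaller.

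Population 7 was set apart by the largest number of genes, of which the 8 highest and 5 lowest by rank and genes of the lists are named here. It also had the fewest members, 117, and the fewest UMIs, and the part of this in the count was not tested. Of its 204 genes, 34 were also set apart in thinned cells and 91 in members with 0 C1q UMIs. Srm, which makes spermidine, had 62.0 CPM in members of population 7, against 11.7 in population 1 and 14.7 in population 4. Pprc1, Utp20, Rfc4, Tfdp1, Mthfd1 and Nek6, with roles in mitochondrial gene control, ribosome assembly, replication, entry into the cell cycle, folate use and mitosis, were named with it, as was Cdk5rap1. Tfdp1 did not keep this side in thinned cells, where its weakest ratio was 0.6596. The survival gene Bcl2 had 191 CPM in members of population 7, against 71.5 in population 1 and 62.0 in population 4. Tnfrsf4 had 326 CPM in members of population 7, against 140.2 in population 1 and 146 in population 4, and the cytokine gene Lta had 25.2 CPM in members of population 7, against 8.07 in population 1 and 9.28 in population 4.

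Among the low genes of population 7, Tnf had 53.6 CPM in members of population 7, against 137 in population 1 and 135 in population 4. Cxcr3, the receptor for interferon-induced chemokines, had 24.2 CPM in members of population 7, against 106 in population 1 and 80.1 in population 4. Itga1, a collagen receptor chain of resident T cells, had 39.9 CPM in members of population 7, against 93.7 in population 1 and 109.9 in population 4, and Itgb7 had 34.7 CPM in members of population 7, against 133 in population 1 and 136 in population 4. Penk, which encodes proenkephalin, had 1.05 CPM in members of population 7, against 37.0 in population 1 and 109 in population 4. Tff1, Ndnf, Ank3 and Gzma completed the named low genes, and Ndnf had too few UMIs for a ratio in thinned cells. Tnf, Cxcr3, Itga1 and Itgb7 differed by less than 1.5-fold between populations 1 and 4.

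Glycolysis was graded the other way from interferon in members, with no single gene past the limit against both other populations. Ldha, lactate dehydrogenase, had 875, 1088 and 1841 CPM in members of populations 1, 4 and 7, Pgk1 337, 419 and 629 CPM and Eno1 1092, 1531 and 2116 CPM. The median log2 ratio of the 18 measured genes was -0.64 for population 1 over 7, and 0 of 18 were set apart in any population. In other T cells Ldha had 905, 839 and 1857 CPM, also highest in population 7. The list summed to 10868, 13450 and 17951.5 CPM in members and 9026, 8533 and 15436 CPM in other T cells. C1q-high cells had 12573.5, 13864 and 18845 CPM, in the same order as members, so the grade was not particular to members.

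Population 1 was set apart by Tnfrsf9 on the low side. It had 648 CPM in members of population 1, against 1299 in population 4 and 1452 in population 7, and 74.3% of its members held a UMI, against 83.3% in population 4 and 91.5% in population 7. Xcl1 had 18.1 CPM in members of population 1, against 106 in population 4 and 65.2 in population 7, but most of its UMIs came from few cells and in thinned cells its weakest ratio was 1.408, no longer lower. The lipid carrier Fabp5 had 5.29 CPM in members of population 1, against 19.1 in population 4 and 26.3 in population 7, and the transferrin receptor Tfrc had 13.1 CPM in members of population 1, against 31.3 in population 4 and 45.2 in population 7. Gcsh, whose weakest ratio was 1.516 in thinned cells, and Tmem120b were the other named low genes. High genes beyond interferon were Mgst2, a glutathione transferase, with 49.2 CPM in members of population 1, against 10.7 in population 4 and 7.36 in population 7, and Enpp1. The heat shock genes Hspa1a and Hspa1b were also named, but rested on 113 UMIs from 5 cells and 131 UMIs from 9 cells. Dynlt1b, a dynein light chain gene, had 61.8 CPM in members of population 1, against 0.977 in population 4 and 1.05 in population 7, from 222, 2 and 1 UMIs.

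Members also varied among themselves within a population. Each was thinned to 2000 UMIs and the 915 deep enough were split by the presence of Havcr2 (in 42.2, 59.2 and 37.5% of members) and, separately, by Gzmk (34.1, 27.1 and 19.6%). A gene was counted when it differed the same way in all 3 populations and at least 1.5-fold over the pooled members, with the pooled interval leaving out 1. With Havcr2, 136 of 5000 genes were higher (2.72%) and 47 were lower (0.94%), of which 22 and 10 reached 1.5-fold within each population. With Gzmk, 68 of 4999 were higher (1.36%) and 143 were lower (2.86%), of which 17 and 48 reached 1.5-fold within each population. Pooled ratios also carry the populations' different shares of split cells, so ratios are given within populations 1, 4 and 7. Thinning leaves few UMIs a cell, and a cell without a UMI may still have expressed the gene.

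Havcr2 is 1 of the genes that chose the members, so this split rests partly on what the rule used and is a description only. Prf1 had 1109.6, 1158 and 1226 CPM in members with a Havcr2 UMI and 478, 569 and 557 CPM in members without, ratios of 2.32, 2.03 and 2.20-fold. Prdm1 (Blimp-1), a factor of terminal differentiation, had ratios of 1.54, 2.07 and 3.33-fold. The hypoxia gene Bnip3 had ratios of 2.32, 1.84 and 1.79-fold and the lactate exporter Slc16a3 2.08, 1.80 and 1.88-fold. These 4 genes were at least 1.5-fold higher in each population. Ccl3 had ratios of 2.27, 2.17 and 1.15-fold and Ccl4 2.23, 1.70 and 1.01-fold, close to level in population 7. Gzmb had ratios of 1.56, 1.49 and 2.01-fold and Ifng 1.35, 1.66 and 1.69-fold. On the lower side stood Ccr7 at 0.185, 0.690 and 0.312-fold, Bcl2 at 0.583, 0.654 and 0.944-fold and the retention receptor Cd69 at 0.602, 0.675 and 0.490-fold. Rsad2 was lower as well, at 0.518, 0.690 and 0.417-fold, and Ifit3 at 0.644, 0.806 and 0.357-fold.

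Members with Gzmk held more of several interferon response genes and of Gzma. Isg15 had 1054, 500.0 and 432 CPM in members with a Gzmk UMI and 716, 289.9 and 161 CPM in members without, ratios of 1.47, 1.73 and 2.68-fold. Xaf1 reached 1.5-fold in each population, at 1.54, 1.62 and 1.64-fold. Ifit2, Rsad2, Rtp4, Usp18, Irf7, Bst2 and Isg20 were counted too, with Rsad2 nearly level in population 4 at 1.01-fold. Gzma had ratios of 3.47, 2.40 and 9.55-fold, Gzmb 1.44, 1.61 and 4.05-fold and Ccl5 1.44, 1.77 and 1.98-fold. In population 7 only 22 members had a Gzmk UMI and 90 had none, and Gzma was seen in 5 of 112. Ratios of population 7 in this split, above all that of Gzma, thus rest on few cells. Gzme was lower, at 0.139, 0.545 and 0.372-fold, as were Irf8 at 0.633, 0.550 and 0.592-fold and Bach2, a repressor of effector genes, at 0.465, 0.358 and 0.141-fold. The macrophage gene Apoe was lower too, at 0.518, 0.489 and 0.341-fold, and the part of free macrophage RNA in this split was not tested. Gzmb was therefore higher in both splits, whereas Rsad2 was higher with Gzmk and lower with Havcr2.

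**Figure D4:**
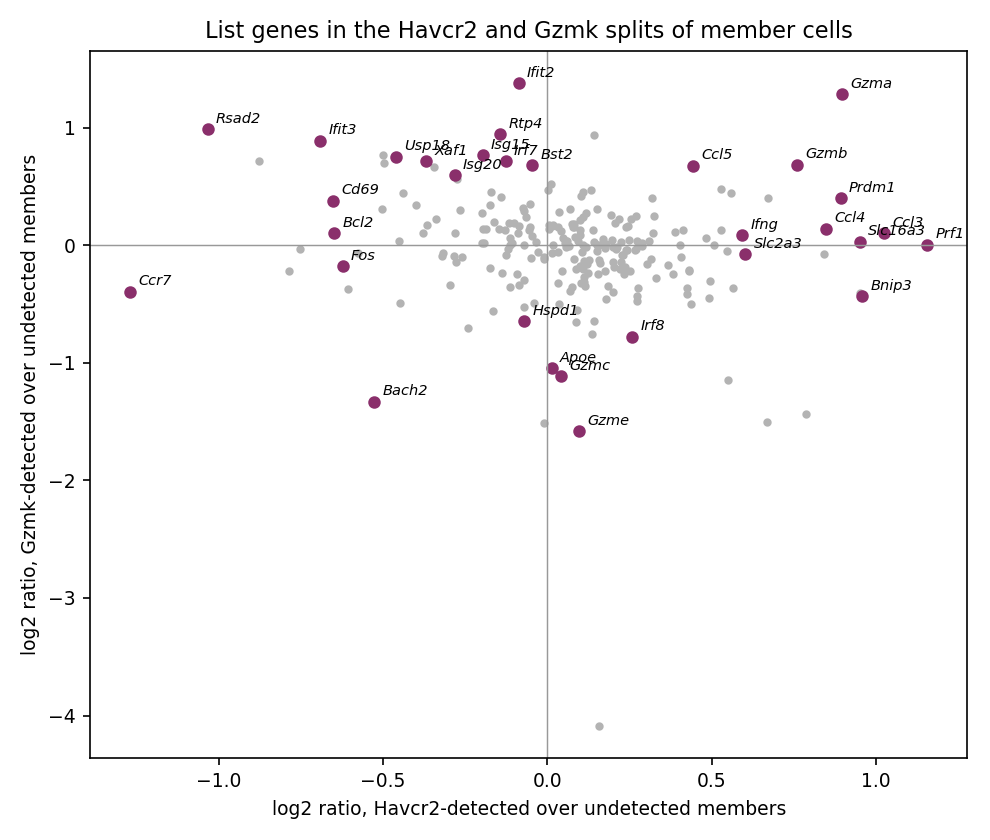
Log2 ratio of 241 list genes between members with and without a Havcr2 UMI (one axis) and with and without a Gzmk UMI (other axis), each point a gene, pooled over members thinned to 2000 UMIs. The 31 coloured and named genes passed 1.5-fold in this pooled ratio and differed the same way in all 3 populations in at least 1 split: Prf1 and Ccl3 lie towards Havcr2, Isg15 and Gzma towards Gzmk.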

How the data were processed

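The deposited table held UMI counts of 27998 genes and of hashtag antibodies in 21624 cell barcodes, all distinct, from 1 pool read as 4 transcript libraries and a hashtag library. Per the file headers and the submitters' processing notes it was made with Cell Ranger 8.0.1 on mm10, and per the series' design text cells under 500 UMIs or 200 genes or over 20% mitochondrial counts were left out. Hashtags are of the TotalSeq-B type in the table and of the TotalSeq-C type in the labels. T cell receptor and immunoglobulin segments were not analysed here.

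From the deposited counts, cells with at least 200 genes and at most 20% mitochondrial counts were kept (21531), hashtags were assigned where the leading one was at least 3 times the next (258 cells had none), and UMIs were summed per class and population. Ratios of summed UMIs have exact conditional binomial intervals, levels exact Poisson and shares exact Clopper-Pearson intervals, all at 95%. A gene at 0 in 1 class was set at 3 counts, with no ratio given where that bound lay on the other side of 1. No p-value was computed, since each population is 1 sample. Scrublet, run in scanpy 1.11.5, marked 184 cells (0.855%) where 8% were expected, 4 of them members, so unmarked doublets may remain, and the marked cells were kept.

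Named genes were the 15 highest and 10 lowest against other T cells and the 8 highest and 5 lowest of each population, ranked by the weakest ratio, besides genes of 22 lists (313 genes in the table). Genes used by the rule, those over 10 times higher in C1q-high or B cells, and mitochondrial, ribosomal, Gm and Rik genes were set aside from the ranking. Members and lists were chosen with earlier results of these data known. Some genes are not reported here. The counting was tested on simulated counts. These were independent Poisson draws per class, so they cannot show how the counting behaves for transcripts that come from few cells. Alternatives concerned the cell rule, thinning, weights, fold and UMI minimum, doublets and each population left out. Python 3.11.15, numpy 2.4.6, scipy 1.17.1, pandas 2.3.3 and matplotlib 3.10.9 were used.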

Additional observations from a re-analysis of the deposited data

Results flagged for a closer look

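Gzma stood on opposite sides of other T cells in different populations: its ratio of members to other T cells was 1.7 in population 1, 2.01 in population 4 and 0.494 in population 7. The intervals were (1.51 to 1.93), (1.90 to 2.13) and (0.335 to 0.716). The difference was not tested, since each population is 1 sample, and the value of population 7 rests on 41 UMIs in members and 103 in other T cells.

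Cells that met every gene condition of the rule also appeared with hashtags 2, 3, 5, 6, 8 and 9, where no member was counted. They numbered 26, or 0.180% of 14446 cells, with only 3 to 6 cells in each population.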

How the results depend on the processing

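No paired analysis was possible because the populations carry no group and no replicate number, and no result comes from a test. Limiting the rule to cells with 0 C1q UMIs left 516 members, with 3 higher and 58 lower genes against other T cells. It set apart 23, 54 and 200 genes in populations 1, 4 and 7. Of these, 16, 28 and 91 were among the 53, 72 and 204 genes of the main count. Thinning every cell to 2000 UMIs, which left out 711 of 6827 cells, gave 2 higher and 10 lower genes, where 6 and 129 had been counted. Thinned cells had 27, 34 and 88 genes set apart in populations 1, 4 and 7, where 53, 72 and 204 had been counted. Only 14, 19 and 34 genes were in both. Equal weights of the cells gave 18 higher genes and 321 set apart in population 7. A minimum of 10 UMIs gave 13 higher and 343 lower, and one of 200 UMIs 1 higher and 23 lower, with 22, 25 and 67 set apart. A 1.5-fold limit gave 51 higher and 258 lower, with 145, 183 and 538 set apart, and a 3-fold limit 1 higher and 70 lower, with 12, 24 and 50. Against other CD8 T cells alone 1 gene was higher, and against non-cycling T cells, added after seeing the data, 40 were higher and 84 lower. Leaving out a population in turn gave 9 to 21 higher and 147 to 218 lower. A hashtag ratio of 10, removal of the few marked doublets, Tcf7 of at most 1 and at least 4 checkpoint UMIs moved each count by less than 1.5 times.

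Of 675 values of 55 named entries, 541 kept their direction and limit, 122 fell short of the limit and 12 changed sides. With thinning, where the rule was applied to the thinned counts and 434, 249 and 94 members were left, those were Styk1 (0.9485), Cdca8 (2.617), Xcl1 (1.408), Gcsh (1.516), Gstm5 (0.9438) and Tfdp1 (0.6596), given as the weakest ratio, and the cause was not tested. Hspa1a, Hspa1b and Ndnf had too few thinned UMIs for a ratio. Without cycling cells they were Rrm2 (1.992), Tpx2 (1.22), Hist1h2ae (1.85), Cdca8 (2.394), Hist1h2ab (1.901) and Cenpf (2.988), so members stood above the comparison cells in at least 1 population. Cells of both sides then held at most 1 UMI of Mki67 and Top2a, and the cause was not tested. Depth limits population 7, with 951231 UMIs in 117 members, and each population is 1 sample, so no value has a replicate.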

Other observations

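A pair of the genes set apart between members stood apart in the same populations in members, other T cells and C1q-high cells, and they are given here as values with no map of hashtags drawn from them. Over all cells of populations 1 to 9, in that order, Dynlt1b had 112, 59.3, 46.4, 0.540, 1.15, 1.73, 0.702, 1.34 and 0.888 CPM and Cdk5rap1, an enzyme that modifies mitochondrial transfer RNA, had 8.46, 14.8, 16.5, 9.36, 11.0, 13.9, 26.4, 62.2 and 73.6 CPM. In members Dynlt1b had 61.8, 0.977 and 1.05 CPM, beside 66.7, 2.00 and 2.54 CPM in other T cells and 167, 0.262 and 0.428 CPM in C1q-high cells of populations 1, 4 and 7. Cdk5rap1 had 9.46, 8.79 and 56.8 CPM in members, 10.2, 12.7 and 55.9 CPM in other T cells and 5.98, 8.83 and 25.1 CPM in C1q-high cells.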
